A study of Homo sapiens with 8 samples.

Results

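Methionine-deficient cells were compared with leucine-deficient cells in ribosome profiling libraries prepared without cycloheximide, 1 library on each side. These are 2 of the 8 libraries of the study. For each gene symbol the transcript with the highest value in a library was kept, and mRNAs with a mean value of at least 10 RPKM in the pair were compared by log2((RPKM in Met- + 1)/(RPKM in Leu- + 1)). This rule kept 8133 mRNAs of the 11386 listed in either library. RPKM counts footprint reads relative to the length of the coding sequence and to all reads of the library.

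All libraries came from HEK293T cells, an established human embryonic kidney line immortalized with the SV40 large T antigen, held overnight in a custom DMEM made without sulfur amino acids, histidine, leucine and arginine. In sufficient medium (Suff) cysteine, methionine, histidine, leucine and arginine were added back, and in the deficient media every one of these but methionine (Met-), leucine (Leu-) or arginine (Arg-) was. All media held dialyzed serum, and each condition was profiled once with and once without cycloheximide, a drug that arrests elongating ribosomes, before collection. The comparison asks how the set of mRNAs occupied by ribosomes differs when the missing amino acid is methionine, which also starts every protein, and when it is leucine.

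Met- and Leu- cells both lack an essential amino acid, yet the amino acids have different roles. Methionine is turned into S-adenosylmethionine, the donor of methyl groups for DNA, RNA and histones and, after decarboxylation, of the aminopropyl groups of polyamines. Leucine is sensed upstream of mTORC1, the kinase complex that promotes translation of mRNAs of the ribosome and translation factors. Uncharged tRNA can activate the kinase GCN2, which phosphorylates eIF2, and the transcription factor ATF4 is then made and switches on genes of amino acid supply, the integrated stress response.

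The Leu- library held 1496852 reads on coding sequences and the Met- library 1302523, recovered from the whole steps of the RPKM values. The fewest reads of a listed mRNA were 5 in both, so an mRNA with fewer reads is absent and not 0. A footprint level joins the amount of an mRNA with the number of ribosomes on it, and fewer mRNA molecules and fewer ribosomes per mRNA cannot be told apart here. With 1 library a side no difference could be tested, and the intervals given with single ratios are exact 95% intervals that cover counting error only. Of 12 markers of HEK293T cells 9 had at least 10 RPKM in each library. All 10 markers of blood and endothelium were absent from Met- and 9 from Leu-, where the other one was at 3.59 RPKM. Of 9 fibroblast and liver markers 8 were absent from both libraries, and the highest value of the list was 4.19 RPKM.

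Across the 8133 mRNAs the median log2 ratio of Met- to Leu- was 0.15, with an SD over mRNAs of 0.77. At least 2-fold higher values in Met- were found for 828 mRNAs (10.2%) and at least 2-fold lower values for 412 (5.07%), and these shares are the background for the gene lists below. Within 2-fold lay 6893 mRNAs, 84.8% of those compared. At least 4-fold differences were seen for 51 mRNAs higher and 47 lower in Met-. Of the higher mRNAs 13 were absent from Leu-, and of the lower ones 18 were absent from Met-. Read counts were recovered in both libraries for 774 of the higher mRNAs, and for 768 of these the counting interval lay above 1. The same held below 1 for 364 of 377 lower mRNAs. The libraries are scaled to their own totals, so the median of 0.15 is an offset of a relative measure. With ratios taken relative to this median, 573 mRNAs were higher and 595 lower, so the share of higher mRNAs among those past 2-fold was 66.8% as measured and 49.1% relative to the median.

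**Figure D1:**
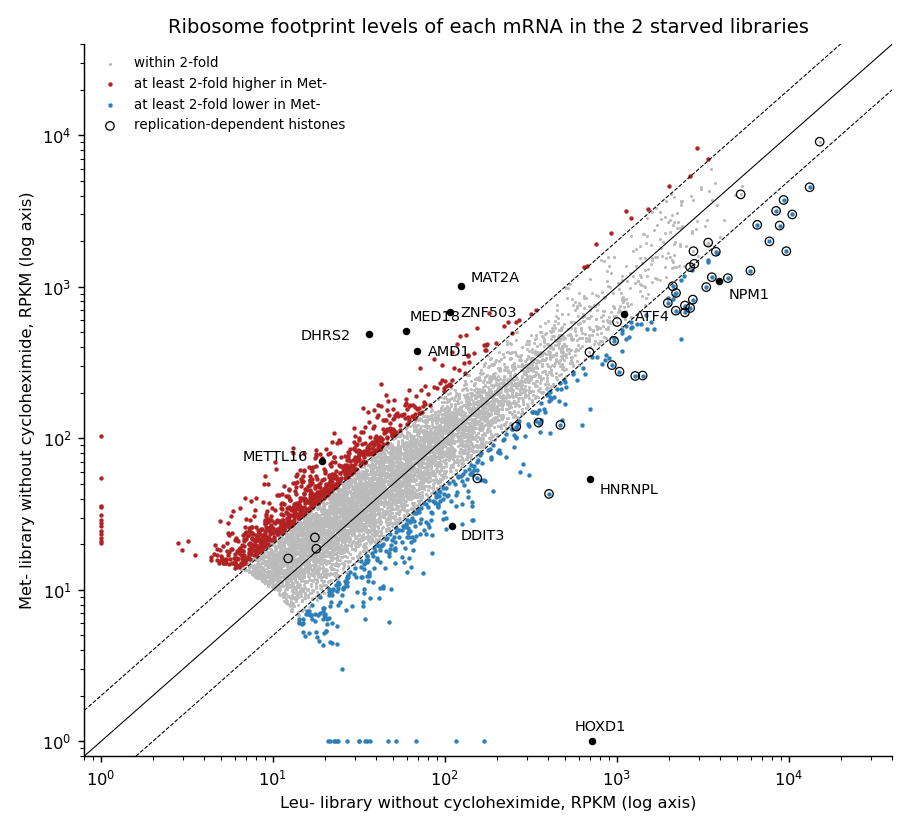
Each point is 1 of the 8133 mRNAs, with its RPKM in the Leu- library on the horizontal axis and in the Met- library on the vertical axis, both logarithmic, and mRNAs absent from a library drawn at 1 RPKM. Dashed lines mark 2-fold differences; of mRNAs present in both, DHRS2, MED18 and MAT2A lie farthest above the diagonal, HNRNPL and HOXD1, absent from Met-, far below it, and the circled histone mRNAs lie mostly below the lower dashed line.

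Among the 4 libraries without cycloheximide, mRNAs past 2-fold had their extreme value in Met- more often than in Leu-. They were chosen by the values of Met- and Leu-, so these shares are partly set by that choice. Of the 828 higher mRNAs, 800 (96.6%) had in Met- their highest value among the 4 libraries without cycloheximide, whereas 266 (32.1%) had in Leu- their lowest. For 440 of them the Met- level was at least 2-fold above all of the other 3 libraries, and for 18 the Leu- level was at least 2-fold below all others. Of the 412 lower mRNAs, 347 (84.2%) had their lowest value in Met- and 233 (56.6%) their highest in Leu-. Here 119 were at least 2-fold below all other libraries in Met-, and 10 at least 2-fold above all others in Leu-. Over all 8133 mRNAs Met- held the highest value for 47.5% and the lowest for 17.1%, and Leu- for 21.2% and 11.5%.

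The mRNAs of methionine use held some of the largest differences. MAT2A encodes methionine adenosyltransferase, which makes S-adenosylmethionine from methionine and ATP. Its level was 249 RPKM in Suff, 85.7 in Arg-, 125 in Leu- and 1019 in Met-. Met- thus stood above all other libraries, and Leu- and Arg- lay below Suff. The ratio of Met- to Leu- was 8.16 (counting interval 7.09 to 9.44; 1577 against 222 reads), a log2 difference of 3.02. AMD1 encodes the decarboxylase that commits S-adenosylmethionine to polyamine synthesis. AMD1 had 110 RPKM in Suff, 93.3 in Arg-, 68.5 in Leu- and 380 in Met-, a ratio of 5.55 (4.48 to 6.92). METTL16 encodes the RNA methyltransferase known to bind hairpins in the MAT2A mRNA. METTL16 had 33.6 RPKM in Suff, 19.8 in Arg-, 19.4 in Leu- and 70.9 in Met-, a ratio of 3.66 (2.64 to 5.15). For MAT2A, AMD1 and METTL16 alike the order was Met- highest, then Suff, with the other starved libraries lowest.

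METTL16 is known to recognise a 9-base motif in the hairpins of the MAT2A 3′ untranslated region, so the sites are shown. The letters TACAGANAA were searched on the sense strand of the 3′ untranslated regions of 7879 of the compared mRNAs (GENCODE release 44, GRCh38). The motif was found 6 times in the 1509 bases of MAT2A, the most of any mRNA. Of all regions 6.08% held it at least once and 0.558% at least 2 times, and the next highest number was 3, reached by FZD3, GPATCH2L and RPAP2. The sites lie on the plus strand of chromosome 2 and are printed 5′ to 3′ with the motif in capitals, from chr2:85543804-85543828 for the first to chr2:85545114-85545138 for the last.
MAT2A site 1: gcgtaggcTACAGAGAAgccttcaa
MAT2A site 2: tgatgtcaTACAGAGAAgtcacagg
MAT2A site 3: ggtgtagcTACAGAGAAaccagctt
MAT2A site 4: ggcgtaagTACAGAGAAgccatcac
MAT2A site 5: aggtgtccTACAGAAAAaccttggg
MAT2A site 6: tggtgtggTACAGAGAAgccagctt
The other 478 mRNAs with the letters had a median log2 ratio of 0.21, close to the 0.15 of all mRNAs, and the 43 with at least 2 copies had 0.30. FZD3 had a log2 ratio of 0.23, GPATCH2L of 0.43 and RPAP2 of 0.80.

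AMD1 is known for a short upstream reading frame whose translation depends on polyamines, and it is shown because AMD1 was second to MAT2A in this list. A single start codon was found in the 321 bases of its 5′ untranslated region, at base 12 from the 5′ end of the annotated transcript. The frame has 6 codons in all, the start codon included, and then a stop. It lies on the plus strand of chromosome 6, chr6:110874792-110874820 with 4 bases on either side, and the frame with its stop codon is in capitals.
AMD1 upstream frame: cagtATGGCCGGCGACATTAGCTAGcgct
The deposited values count reads on the coding sequence alone, so AMD1 reads on this frame were not analysed here.

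The list of the methionine cycle, S-adenosylmethionine and sulfur amino acids had 30 genes, of which 23 passed the limit of 10 RPKM. Its median log2 ratio was 0.09, against 0.15 for all mRNAs. At least 2-fold higher in Met- were 4, MAT2A, AMD1 and METTL16 among them, SMS was at least 2-fold lower and the other 18 lay within 2-fold. SMS, which makes spermine from spermidine, had 135 RPKM in Leu- and 53.7 in Met-, 2.51-fold lower in Met- (1.93 to 3.30). SMS was thus lowest in Met- and highest in Suff, at 159 RPKM. MTAP, which recovers methionine from the by-product of polyamine synthesis, had 53.8 and 28.3 RPKM. CTH, which makes cysteine from cystathionine, had 17.3 RPKM in Suff, 231 in Arg-, 141 in Leu- and 78.2 in Met-, so that both members of the pair lay above Suff. GOT1, the cytosolic aspartate aminotransferase, had 135 RPKM in Leu- and 75.4 in Met-. MAT2B, the regulatory subunit that partners MAT2A, did not share the MAT2A pattern, with 123 RPKM in Leu- and 96.3 in Met- (chosen after its values were seen). The wider list of polyamine synthesis and antizymes had 11 of 15 genes measured and a median of 0.09, with AMD1 higher and SMS lower by at least 2-fold. AZIN1, which protects ornithine decarboxylase from degradation, had 72.4 RPKM in Leu- and 133 in Met-.

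**Figure D2:**
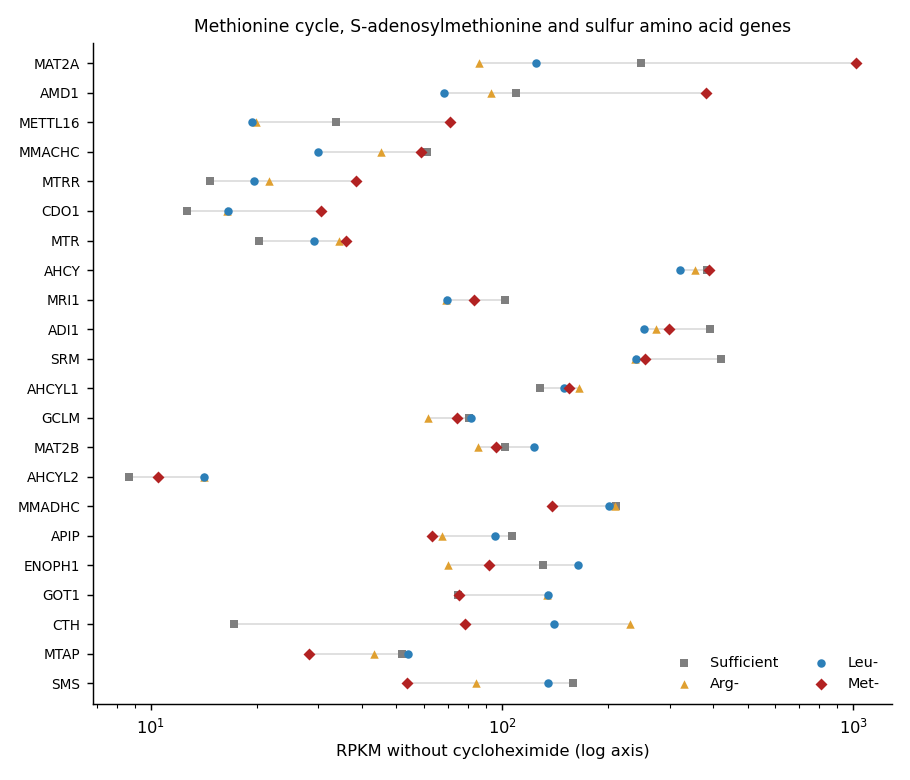
Measured genes of the methionine list, 22 of the 23, are ordered by their ratio of Met- to Leu-, each with its RPKM in the 4 libraries without cycloheximide on a logarithmic axis and 1 symbol per library. The Met- symbol lies apart on the right for MAT2A, AMD1 and METTL16 and on the left for MTAP and SMS.

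Outside the fixed lists, the 12 mRNAs with the highest and the 12 with the lowest ratio are named by rule, with at least 64 reads in the pair and ribosomal protein and histone genes left out. The 12 highest ratios ran from 5.38 to 13.4, and all 12 had their highest value of the 4 libraries in Met-. DHRS2, a short-chain dehydrogenase, came first, with 6.70 RPKM in Suff, 44.0 in Arg-, 36.3 in Leu- and 487 in Met-, a ratio of 13.4 (10.0 to 18.4). MED18, a subunit of the Mediator of transcription, had 55.9, 62.4, 59.7 and 507 RPKM in the same order. For MED18 the first 3 libraries were close together and Met- alone stood apart, with a ratio of 8.50 (6.42 to 11.4). ZNF503, a zinc finger repressor, had 99.1 RPKM in Suff, 142 in Arg-, 106 in Leu- and 683 in Met-. HEXIM1, the inhibitor of the elongation kinase P-TEFb, had 42.2, 29.9, 42.7 and 230 RPKM. FASTKD5, a mitochondrial RNA processing factor, had 9.02 RPKM in Leu- and 56.2 in Met-, and PDP1, a phosphatase that activates pyruvate dehydrogenase, had 13.1 and 79.5. In FASTKD5 and PDP1 too the Met- level stood alone, since Suff and Arg- lay near Leu-. ADAT3, a subunit of the tRNA adenosine deaminase, had 10.3 RPKM in Leu- and 69.5 in Met-. BLOC1S3, a subunit of the BLOC-1 complex of lysosome-related organelles, had 13.2 and 87.0. ZNF18 had 6.88 and 40.5, and LRRC8C, a subunit of the volume-regulated anion channel, had 8.86 and 50.3. MAT2A and AMD1 complete the 12. ADAT3, BLOC1S3, FASTKD5 and HEXIM1 have a coding sequence in 1 exon and MED18, ZNF503, PDP1 and LRRC8C in 2.

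The 12 lowest were led by 3 mRNAs absent from Met-, for which no ratio is given. HOXD1 had 106 RPKM in Suff, 3884 in Arg-, 720 in Leu- and none in Met-, and it was absent from both cycloheximide libraries of the pair. NTF4 had 67.5 RPKM and VSTM2A 46.7 in Leu-. With cycloheximide VSTM2A was absent from Leu- and had 223 RPKM in Met-. The lowest mRNA present in both libraries without the drug was HNRNPL, a splicing factor that binds CA-rich RNA. It had 559 RPKM in Suff, 522 in Arg-, 701 in Leu- and 53.8 in Met-. HNRNPL was close to even in the first 3 libraries and 13.03-fold lower in Met- than in Leu- (10.9 to 15.8). Its paralog HNRNPLL came next, with 38.7, 49.9, 47.2 and 6.13 RPKM, 7.70-fold lower in Met- (4.33 to 14.9). RPL22L1, a paralog of a ribosomal protein, had 630 RPKM in Leu- and 123 in Met-, PARVB 74.4 and 12.9, CMC1 146 and 28.7, FAM216A 143 and 29.0, FANCL 84.2 and 17.5 and ASB13 48.7 and 10.1. Of these 12 mRNAs 11 had their lowest value of the 4 libraries in Met-, NTF4 being also absent from Arg-.

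Integrated stress response mRNAs stood above Suff in both starved libraries, but several were much lower in Met- than in Leu-. Of the 57 genes of the list 49 were measured, 48 of them above Suff in Met- and 48 in Leu-. At least 2-fold above Suff were 35 in Met- and 40 in Leu-. The median level was 47.8 RPKM in Suff, 170 in Arg-, 163 in Leu- and 118 in Met-. Over 7872 nuclear mRNAs with a coding length the median was 33.5 RPKM in Suff, 38.9 in Leu- and 44.5 in Met-. The share of all mRNAs above or below Suff was not counted, here or for the lists below. The median log2 ratio of Met- to Leu- was -0.39, with none of the 49 at least 2-fold higher in Met- and 9 (18.4%) at least 2-fold lower, against 5.07% of all mRNAs. Only 15 lay above the median of all mRNAs.

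Among the regulators, ATF4 itself had 251 RPKM in Suff, 700 in Arg-, 1098 in Leu- and 662 in Met-. ATF4 was thus above Suff in all starved libraries and 1.66-fold lower in Met- than in Leu- (1.53 to 1.80), with Met- close to Arg-. DDIT3, the transcription factor CHOP, had 4.40, 101, 110 and 26.5 RPKM in the same order. TRIB3, a pseudokinase that feeds back on ATF4 and CHOP, had 9.35, 162, 125 and 27.2 RPKM. For DDIT3 and TRIB3 the Arg- and Leu- levels were close and the Met- level lay between them and Suff. The ratios were 4.13-fold (2.53 to 7.07) and 4.61-fold (3.29 to 6.60) lower in Met- than in Leu-. ATF3 had 228 RPKM in Leu- and 107 in Met-. NUPR1, a stress-induced chromatin protein named here after its values were seen, had 163 and 53.2. CEBPG, a partner of ATF4, went the other way, with 75.9 RPKM in Suff, 202 in Arg-, 243 in Leu- and 420 in Met-, a ratio of 1.73 (1.41 to 2.12). DDIT4, an inhibitor of mTORC1, had 184, 798, 699 and 1124 RPKM.

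Among the enzymes and transporters of this response, ASNS, asparagine synthetase, had 68.0 RPKM in Suff, 689 in Arg-, 607 in Leu- and 392 in Met-, 1.55-fold lower in Met- than in Leu- (1.42 to 1.68). PCK2, mitochondrial phosphoenolpyruvate carboxykinase, had 11.1, 121, 144 and 35.9 RPKM, 4.01-fold lower in Met- (3.19 to 5.10). ALDH1L2, a mitochondrial folate dehydrogenase, had 7.24, 37.0, 38.3 and 11.4 RPKM. PCK2 and ALDH1L2 thus repeated the order of DDIT3 and TRIB3. SESN2, a leucine-binding inhibitor of mTORC1 signalling, had 53.4, 237, 236 and 187 RPKM and was 1.26-fold lower in Met- than in Leu- (1.10 to 1.45). ALDH18A1, which starts proline synthesis, had 67.7 RPKM in Leu- and 118 in Met-, and RHBDD1, a rhomboid protease, had 30.3 and 57.5. CHAC1, which degrades glutathione, was listed in neither library.

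The C/EBP-ATF response element is the known site of ATF4 with C/EBP partners, and its core letters TGATGNAA were searched on both strands of the RefSeq promoters, 250 bases before to 50 after the start (GRCh38.p14). They were found in promoters of 13 of the 42 measured stress response genes with an entry and of 2.40% of the 6585 compared genes with one. A few are printed 5′ to 3′ along the gene with the letters in capitals, as those of ASNS (chr7:97872461-97872484, minus strand), ATF3 (chr1:212565208-212565231, plus strand), CEBPG (chr19:33374063-33374086, plus strand) and MARS1 (chr12:57488056-57488079, plus strand, where the letters are on the other strand).
ASNS: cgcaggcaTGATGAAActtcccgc
ATF3: ggtcaggaTGATGGAAggctgtca
CEBPG: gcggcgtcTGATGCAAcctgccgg
MARS1: ggttccggTTGCATCAgcgaggga
The 13 genes with the letters had a median log2 ratio of -0.05 and 1 of them, ATF3, was at least 2-fold lower in Met-. The 29 without them had a median of -0.44, with 5 at least 2-fold lower. Such a match is a description of the letters in this window, and the groups were not tested against each other.

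**Figure D3:**
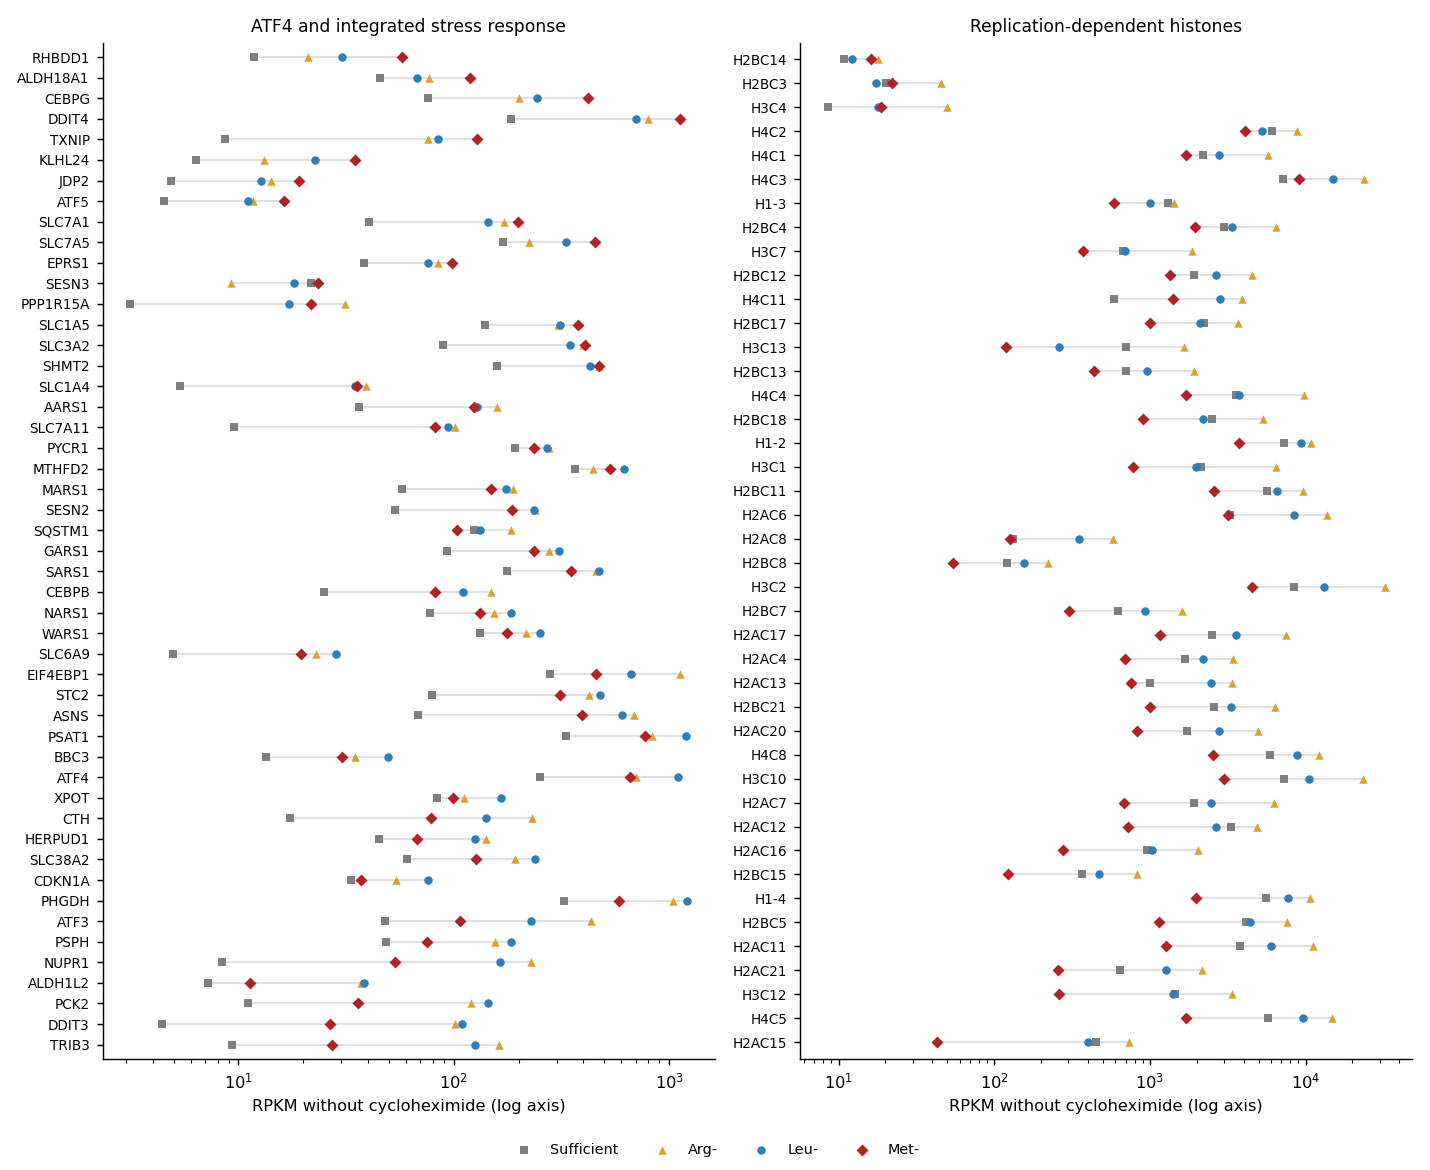
The left panel shows the 49 measured stress response genes and the right panel the 42 measured histone genes, each ordered by the ratio of Met- to Leu-, with the RPKM in the 4 libraries without cycloheximide on a logarithmic axis. On the left Suff is mostly lowest and Met- lies between Suff and Leu- for the genes at the bottom (TRIB3, DDIT3, PCK2). On the right Met- is the lowest symbol for 37 of 42 genes.

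Serine synthesis and the folate one-carbon pathway, which supplies methyl groups to the methionine cycle, were lower in Met-. Of 19 genes 15 were measured, with a median log2 ratio of -0.65, 3 at least 2-fold lower, none at least 2-fold higher and 1 above the median of all mRNAs. PHGDH, the first enzyme of serine synthesis, had 326 RPKM in Suff, 1039 in Arg-, 1214 in Leu- and 583 in Met-. PSPH, the last enzyme, had 48.4, 155, 184 and 74.7 RPKM. ALDH1L2 was the third. PHGDH and PSPH were thus above Suff in all starved libraries and nearest to it in Met-. SHMT2, the mitochondrial serine hydroxymethyltransferase, did not follow them, with 431 RPKM in Leu- and 471 in Met-. TYMS, thymidylate synthase, had 365 and 200 RPKM.

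Leucine catabolism had 16 of 17 genes measured, with a median of -0.18, none at least 2-fold higher and 2 at least 2-fold lower in Met-. BCAT2, the mitochondrial branched-chain aminotransferase, was one of these, with 77.4 RPKM in Suff, 53.01 in Arg-, 71.9 in Leu- and 27.7 in Met-. BCKDK, the kinase that inhibits the branched-chain ketoacid dehydrogenase, had 59.9 RPKM in Leu- and 110 in Met-. Among 28 measured amino acid transporters the median was 0.26, with SLC7A8 and SLC25A44 at least 2-fold higher and SLC36A4 and SLC7A2 at least 2-fold lower in Met-. SLC7A8, a transporter of large neutral amino acids, had 5.82 RPKM in Leu- and 18.6 in Met-. SLC38A2, a carrier of small neutral amino acids and methionine, had 60.7 RPKM in Suff, 193 in Arg-, 239 in Leu- and 126 in Met-. In the list of amino acid sensing and mTORC1 36 of 43 genes were measured, with a median of -0.04, 3 higher and 2 lower by at least 2-fold. WDR24 of the GATOR2 complex had 8.95 RPKM in Leu- and 23.9 in Met-, RPTOR, the scaffold of mTORC1, 9.33 and 21.5, and RRAGC, a Rag GTPase, 29.5 and 61.4. SESN1 had 35.1 and 16.7, and LAMTOR3 160 and 77.8.

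The replication-dependent histones, whose mRNAs end in a stem-loop in place of a poly(A) tail and are made in S phase, formed the list with the lowest median. Of 56 genes 42 were measured, with a median log2 ratio of -1.47. None was at least 2-fold higher in Met- and 31 (73.8%) were at least 2-fold lower, against 5.07% of all mRNAs. The summed level of the 42 was 111390 RPKM in Suff, 279554 in Arg-, 155079 in Leu- and 58487 in Met-. The starved libraries thus lay on both sides of Suff, with Arg- highest and Met- lowest. In Met- 37 of 42 had their lowest value of the 4 libraries and 26 were at least 2-fold below Suff, against 1 in Leu-. By family, all 12 H2A mRNAs were at least 2-fold lower in Met-, as were 9 of 13 of H2B, 5 of 7 of H3, 3 of 7 of H4 and 2 of 3 of H1. Reads shared by near-identical histone copies were not kept, so levels of single histone genes are uncertain.

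H2AC15 had the lowest ratio, with 453 RPKM in Suff, 739 in Arg-, 403 in Leu- and 43.0 in Met-, 9.37-fold lower in Met- than in Leu- (6.05 to 15.2; 22 against 237 reads). H4C5 had 5708, 14767, 9661 and 1718 RPKM, and H3C12 had 1445, 3385, 1411 and 260. H4C5 and H3C12 were 5.62-fold (5.19 to 6.10) and 5.43-fold (4.54 to 6.55) lower in Met-. H2AC21 had 1278 RPKM in Leu- and 258 in Met-. H2BC14, H2BC3 and H3C4, the only members above a log2 ratio of 0, had 7 to 11 reads in each library. H4C2 had 5244 RPKM in Leu- and 4072 in Met-.

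The stem-loop is shown because it sets these mRNAs apart from nearly all others. The letters GGNNNTTNTNAGNNCC were searched on the sense strand of the first 100 bases after the stop codon. They were found in 39 of the 42 histone mRNAs. Of the 7879 3′ untranslated regions searched 47 (0.597%) held them, these 39 included and 8 outside the list. H3C12 (chr6:27890315-27890340, minus strand) carries the form shared by 24 of the 39, H4C5 (chr6:26204996-26205021, plus strand) one shared by 7 and H2AC21 (chr1:149887469-149887493, minus strand) one shared by 5. H2AC15 (chr6:27837880-27837905, minus strand), with the lowest ratio, is the single member with its form.
H3C12: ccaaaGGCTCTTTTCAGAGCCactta
H4C5: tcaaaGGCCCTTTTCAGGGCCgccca
H2AC21: ccaaaGGCTCTTTTAAGAGCCacca
H2AC15: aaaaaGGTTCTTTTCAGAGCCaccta
The capitals mark the 16 letters of the search. The 39 members with the stem-loop letters had a median log2 ratio of -1.49 and the 3 without them one of -1.35.

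Genes of DNA replication, which accompany histone synthesis in S phase, had a median of -0.04 over 46 measured of 46, with 1 at least 2-fold higher and 3 lower in Met-. FEN1, the flap endonuclease of lagging-strand synthesis, was the higher one, with 236 RPKM in Suff, 185 in Arg-, 181 in Leu- and 673 in Met- (ratio 3.71, 3.27 to 4.23). PCNA, the sliding clamp, had 870, 1173, 1221 and 541 RPKM, RRM2, a ribonucleotide reductase subunit, 298, 242, 358 and 127, and DUT 290, 273, 322 and 150. Within this 1 pathway FEN1 thus lay above and PCNA, RRM2 and DUT below the other libraries in Met-. Of 41 measured mitosis and cyclin genes 1 was at least 2-fold higher and 7 lower, with a median of -0.21. CDKN2C, an inhibitor of the G1 kinases, had 67.2 RPKM in Leu- and 161 in Met-. CKS2 had 855 and 329 RPKM, CCND2 306 and 121, AURKB 252 and 106 and CCNB2 143 and 60.3.

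Ribosomal protein mRNAs, whose translation depends on mTORC1 through their terminal oligopyrimidine (TOP) tracts, were below Suff in Leu- throughout, and in Met- for all but 5 members. Of 79 genes 74 were measured, with a median level of 3377 RPKM in Suff, 2806 in Arg-, 1914 in Leu- and 2492 in Met-. Leu- held the lowest value of the 4 libraries for 57 of the 74 and Met- for 15. The median log2 ratio was 0.46, with 7 at least 2-fold higher, none lower and 51 above the median of all mRNAs. RPL39 had 6958 RPKM in Suff, 7940 in Arg-, 2912 in Leu- and 8204 in Met-, RPS2 2149, 2634, 1129 and 3157 and RPS19 4799, 3816, 2021 and 4608. For these genes Leu- alone was low. RPLP1 had 2943 RPKM in Leu- and 1593 in Met-, RPL5 2446 and 1368, RPL24 3354 and 1892 and FAU 1933 and 1155, with Met- the lowest of the 4 libraries for RPLP1, RPL5, RPL24 and FAU. Pseudogene copies share reads with these genes, so single values are uncertain.

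The TOP mRNAs that do not encode ribosomal proteins had no such median shift, with -0.13 over 20 genes, 1 at least 2-fold higher and 3 lower in Met-. EEF1A1 had 3764 RPKM in Suff, 5936 in Arg-, 3545 in Leu- and 5950 in Met- and EEF2 576, 1148, 926 and 1242. EEF1G was the higher one, with 27.5 RPKM in Leu- and 80.6 in Met-. NPM1, the nucleolar histone chaperone, had 5869, 2512, 3943 and 1099 RPKM, 3.59-fold lower in Met- than in Leu- (3.37 to 3.82), HNRNPA1 1409, 738, 1123 and 451 and VIM 450, 626, 490 and 242. Of 30 measured initiation factors 2 were at least 2-fold higher, with a median of -0.18. EIF4G1, the scaffold of the cap-binding complex, had 35.3 RPKM in Leu- and 82.8 in Met-, and EIF5, which acts in start codon choice, had 131 and 268. EIF4A1 had 2157 and 1344, and EIF2S1, the subunit of eIF2 that is phosphorylated, had 168 and 92.3.

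Ribosome biogenesis in the nucleolus had a median of 0.10 over 50 measured of 56 genes, with 5 at least 2-fold higher and none lower. UTP15 had 19.3 RPKM in Leu- and 74.0 in Met-, POLR1B, a subunit of RNA polymerase I, 21.8 and 66.0, BYSL 76.8 and 221 and RRS1 79.7 and 197. Mitochondrial ribosomal proteins had a median of 0.25 over 76 measured of 78, with 10 higher and 3 lower by at least 2-fold. MRPS12 had 117 RPKM in Leu- and 416 in Met- and MRPS2 110 and 369, while MRPS18C had 210 and 80.5 and MRPL2 258 and 100.4. MRPL33 was absent from Leu- and had 54.8 RPKM in Met-.

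The tRNA synthetases differed by compartment. The 16 measured mitochondrial synthetases had a median of 0.59, with 3 at least 2-fold higher and none lower, and the 23 cytosolic ones had a median of -0.22, with 1 lower and none higher. PARS2 had 14.1 RPKM in Suff, 23.5 in Arg-, 17.8 in Leu- and 83.3 in Met-, a ratio of 4.69 (3.27 to 6.87). MARS2, which charges mitochondrial tRNA with methionine, had 24.7, 24.4, 15.4 and 46.1 RPKM, and LARS2, its counterpart for leucine, had 17.9, 25.9, 21.7 and 45.6. In the cytosol LARS1 had 28.7, 97.2, 75.9 and 94.4 RPKM and MARS1, named after its values were seen, 57.5, 189, 174 and 149, so that each was above Suff in all starved libraries. AIMP2, a scaffold of the multisynthetase complex, had 111 RPKM in Leu- and 52.6 in Met-.

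Several lists of abundant housekeeping mRNAs had a median below 0. Of 31 measured proteasome genes none was at least 2-fold higher and 1, PSMC3, lower, with a median of -0.48 and 3 members above the median of all mRNAs. PSMC3 had 274 RPKM in Suff, 198 in Arg-, 253 in Leu- and 87.2 in Met-. All 8 subunits of the CCT chaperonin lay below the median of all mRNAs, from CCT8 with 367 RPKM in Leu- and 298 in Met- to CCT2 with 415 and 181, and the list median was -0.57. Heat shock chaperones had a median of -0.44 over 20 genes. HSPE1 had 1545, 325, 605 and 303 RPKM in Suff, Arg-, Leu- and Met-, and BAG3, the only member at least 2-fold higher, had 18.2 in Leu- and 39.1 in Met-. Nuclear-encoded oxidative phosphorylation had a median of -0.27 over 72 genes, with 3 at least 2-fold lower and 9 above the median of all mRNAs. ATP5MC3, the c subunit of the ATP synthase, had 2526, 1025, 1492 and 530 RPKM and SDHD 263, 151, 306 and 125.

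Splicing factors of the hnRNP and SR families had a median of -0.56 over 36 measured genes, with 5 at least 2-fold lower and none higher. Beside HNRNPL, HNRNPA3 had 1684 RPKM in Suff, 490 in Arg-, 1653 in Leu- and 524 in Met-, so that Arg- and Met- were low together, and SRSF1 had 1253, 752, 1078 and 518. SRSF2 had 83.3 RPKM in Leu- and 152 in Met-. Glycolysis and pentose phosphate genes had a median of -0.39 over 22, with ENO1, LDHB and PFKP at least 2-fold lower. ENO1, enolase, had 1769, 2148, 2370 and 1112 RPKM and LDHB 2397, 1369, 2447 and 1177. Purine and pyrimidine synthesis had a median of -0.29 over 21 genes, with RRM2 and ADSS2 at least 2-fold lower. The antioxidant list had a median of -0.24 over 22 genes, with MGST1 and TXN at least 2-fold lower. TXN, thioredoxin, had 3802, 1294, 3821 and 1683 RPKM. In the p53 target list, 3 of 22 genes were higher and 3 lower by at least 2-fold, with a median of -0.21. TIGAR had 43.6 RPKM in Leu- and 131 in Met- and PPM1D 26.8 and 65.5, while GADD45A had 52.4, 253, 205 and 83.2 in the order of the 4 libraries.

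Cholesterol synthesis had a median of 0.15 over 29 genes, equal to that of all mRNAs, but its members were spread. DHCR7, the last enzyme of the pathway, had 95.5 RPKM in Suff, 52.2 in Arg-, 50.5 in Leu- and 178 in Met- and was the only one at least 2-fold higher. MVD had 41.8, 71.7, 33.9 and 9.57 RPKM, ACAT2 174, 68.6, 98.5 and 32.8 and INSIG1 118, 14.9, 33.6 and 13.8, and with FADS2 these made the 4 at least 2-fold lower. The unfolded protein response list had a median of 0.16 over 26 genes, with ERO1B, CRELD2 and SDF2L1 at least 2-fold higher. SDF2L1 had 186, 70.8, 67.2 and 137 RPKM and HSPA5, the chaperone BiP, 137, 216, 107 and 198. The lysosome and autophagy list had a median of -0.02 over 35 genes with RRAGC alone past 2-fold, and 5 measured collagen and matrix genes had a median of 0.14 with none past 2-fold.

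Of 248 KRAB zinc finger genes, which mostly encode repressors of transcription, 193 were listed and 59 passed the limit of 10 RPKM. These 59 had a median log2 ratio of 0.66, with 19 at least 2-fold higher and none lower, and for 55 of them Met- held the highest value of the 4 libraries. A gene with a low level in Leu- passed the limit only where its level in Met- was high, so these 59 do not stand for the list. Without the limit the median of the 193 was 0.61, below the 0.69 of 20 immediate early factors. Relative to mRNAs of like coding length the median of the 59 was 0.44, below the 0.57 of ribosomal proteins. ZNF394 had 10.4 RPKM in Suff, 7.73 in Arg-, 8.72 in Leu- and 37.8 in Met- and ZNF777 14.7, 20.6, 19.5 and 70.4. Immediate early and short-lived factors had a median of 0.42 over 16 of 32, with 6 at least 2-fold higher and 1, ATF3, lower. IER2 had 44.1, 48.0, 38.8 and 153 RPKM, DUSP1, a MAP kinase phosphatase, 28.0, 116, 50.2 and 157 and MAFG 21.5, 33.0, 13.7 and 56.5. IER3 was absent from Leu- and had 31.0 RPKM in Met-.

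Enzymes that place methyl groups, drawing on S-adenosylmethionine, and enzymes that remove them had a median of 0.29 over 41 measured of 48. Of these, 6 were at least 2-fold higher and 1 lower in Met-. The median was 0.028 relative to mRNAs of like coding length and 0.038 at a mean of at least 50 RPKM. WTAP, a subunit of the complex that methylates adenosine in mRNA, had 114 RPKM in Suff, 117 in Arg-, 134 in Leu- and 478 in Met-, a ratio of 3.58 (3.09 to 4.16). CMTR2, which methylates the mRNA cap, had 5.20 RPKM in Leu- and 14.9 in Met-, and KDM5B, a histone demethylase, had 6.34 and 17.5. PRMT1, the main arginine methyltransferase, had 544, 390, 356 and 111 RPKM, 3.21-fold lower in Met- than in Leu- (2.69 to 3.85). DNMT3B, a DNA methyltransferase, had 14.9 RPKM in Leu- and 7.49 in Met-. Without cycloheximide WTAP and METTL16, which both act on RNA, were thus the highest of this list and PRMT1 the lowest.

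**Figure D4:**
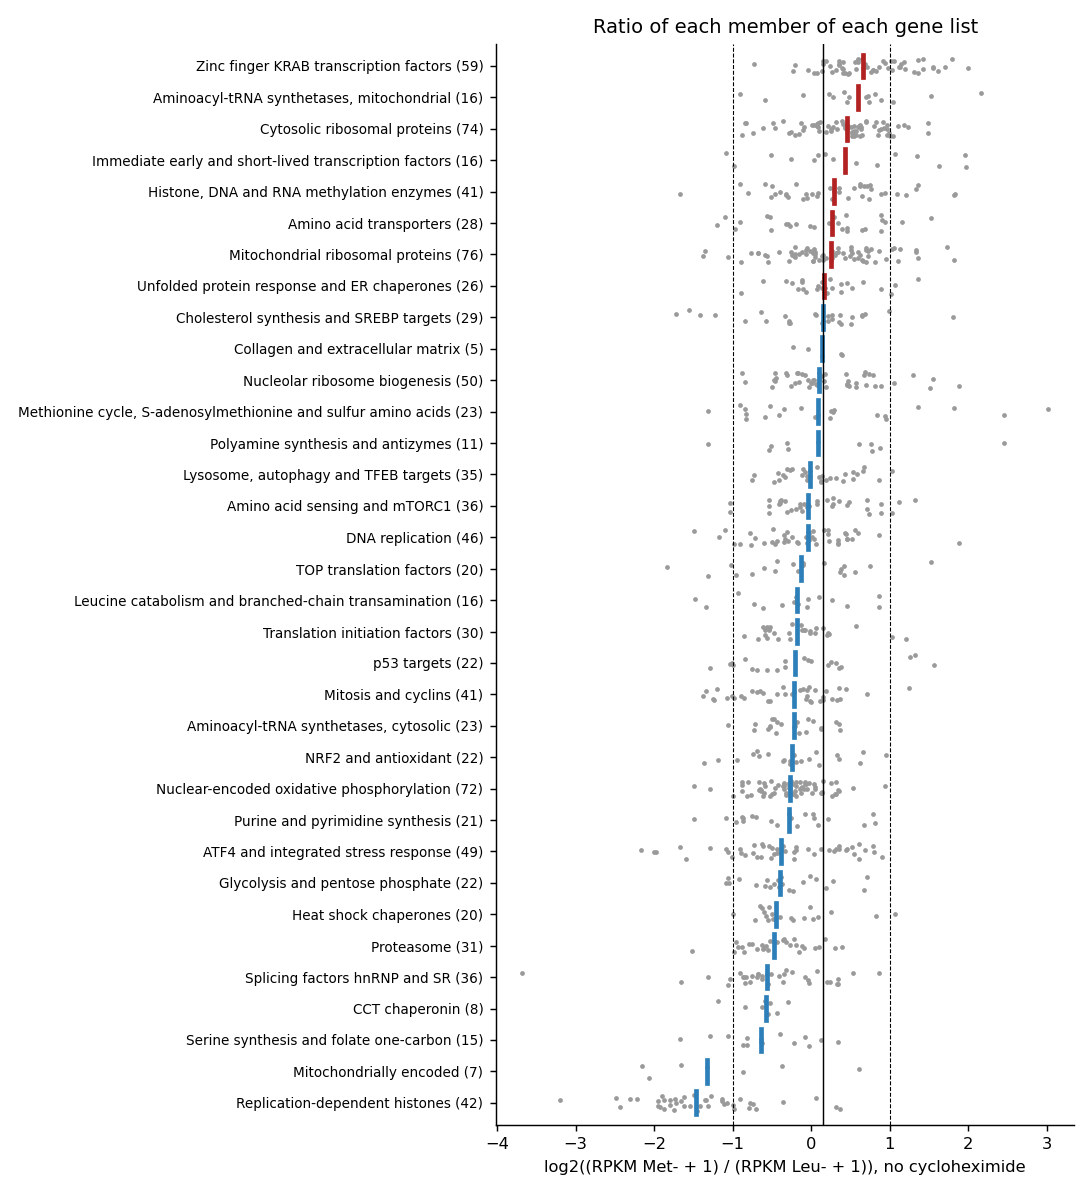
Each grey point is a measured member of a gene list (number measured in parentheses) at its log2 ratio of Met- to Leu-, with members absent from either library not drawn, and the coloured bar is the list median over all measured members, red above and blue below the median of all mRNAs (solid line). Dashed lines mark 2-fold differences. Histones lie lowest at -1.47, KRAB zinc finger genes at 0.66 (59 of 193 listed, those past the limit of 10 RPKM), and most lists have medians within the dashed lines.

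Mitochondrially encoded mRNAs, a list chosen after values were seen, are translated by mitochondrial ribosomes, and 7 of 13 were measured. MT-ATP8 had 349 RPKM in Suff, 534 in Arg-, 700 in Leu- and 156 in Met-, MT-ATP6 86.5, 150, 169 and 52.99, MT-ND6 201, 119, 284 and 67.3 and MT-ND5 142, 310, 204 and 80.9, each at least 2-fold lower in Met- than in Leu-. MT-CO1, with 528, 856, 903 and 1378 RPKM, lay within 2-fold (log2 ratio 0.61), as did MT-CO2 and MT-ND4L.

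The ratio also went with the structure of the gene, which was looked at after the values of the 12 highest mRNAs were seen. With histones left out, 709 mRNAs with a coding sequence in 1 or 2 exons had a median log2 ratio of 0.47, with 25.8% at least 2-fold higher in Met- and 5.08% lower. The 7111 mRNAs with 3 or more coding exons had a median of 0.13, with 8.70% higher and 4.63% lower. The share of higher mRNAs was 25.4% for 1 coding exon, 26.2% for 2, 14.6% for 3 or 4, 8.56% for 5 to 8, 6.82% for 9 to 16 and 7.86% for 17 or more. In each of 5 equal bins of coding length the mRNAs with 1 or 2 coding exons had the higher median, 0.20 against -0.12 in the shortest bin and 1.02 against 0.38 in the longest. They also had the larger share at least 2-fold higher, 13.9% against 4.31% in the shortest bin and 53.5% (23 of 43) against 12.6% in the longest. Over all lengths the mRNAs with 1 or 2 coding exons had a median level of 37.5 RPKM over the pair and the others 42.8. In each length bin their level was the lower one. It was 77.9 against 120 RPKM in the shortest bin, 26.1 against 44.6 in the third and 18.5 against 22.2 in the longest. Exon number and level were not separated, and their parts in the difference were not tested.

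Coding length went with the ratio too. Over 7872 nuclear mRNAs with a coding length Spearman's rho was 0.26, a description across mRNAs that share both libraries. The shortest of 5 equal bins, with a median coding length of 501 bases, had a median log2 ratio of -0.10 and the longest, with 2799 bases, one of 0.39. In these bins 5.90% and 13.6% of mRNAs were at least 2-fold higher in Met-, and 10.3% and 1.33% lower. The share of methionine codons, the amino acid missing in Met-, had a rho of -0.11. The median ratio was 0.24 in the bin with the least methionine and 0.02 in the bin with the most. This share includes the start codon, which weighs more in short coding sequences, and it was not separated from coding length. The share of leucine codons had a rho of 0.05, with medians of 0.08 and 0.20 in the lowest and highest bin. The length of the 5′ untranslated region had a rho of 0.14, that of the 3′ untranslated region 0.13 and coding GC content 0.08.

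The libraries prepared with cycloheximide hold the same comparison once more, with 1 library a side and, by the records, other handling of duplicate reads. Their depths differed, with 6434043 reads in Leu- and 538222 in Met-, and the fewest reads of a listed mRNA were 64. At the median coding length of each library, 64 reads were 107 RPKM in Met- and 7.68 in Leu-. An mRNA with a low level in Leu- was thus listed in Met- only if its level there was higher. Listing in both libraries therefore favoured higher ratios. Of the 8133 mRNAs 1905 were listed in both, with a median log2 ratio of 0.83. Of these 44.8% were at least 2-fold higher in Met- and 7.09% lower, so the offset is large and each group is read against it. Of the 828 higher mRNAs without cycloheximide 662 were listed in Leu-, 211 in Met- and 209 in both. Of these 209, 194 lay above the median of 0.83 and 190 (90.9%) were at least 2-fold higher. Because listing favoured higher ratios, these shares do not stand for the 828. Of the 412 lower mRNAs 79 were listed in both, 74 below the median and 40 (50.6%) at least 2-fold lower. Over the 1905 mRNAs the ratios had a Spearman's rho of 0.62 and a Pearson's r of 0.63, a description across mRNAs.

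MAT2A had 83.7 RPKM in Leu- and 728 in Met- with cycloheximide, a log2 ratio of 3.10 against 3.02 without the drug. DHRS2 had 38.3 and 246, MED18 58.5 and 333, ZNF503 49.4 and 965 and HEXIM1 19.2 and 202, each higher in Met-. At these Leu- levels, and at that of MAT2A, 64 reads in Met- already meant a higher value than in Leu-. The direction of these ratios was thus set by being listed, and so was a minimum of their size. HNRNPL had 348 and 83.1, ATF4 342 and 251 and ASNS 262 and 178, each lower again. Some named genes lower in Met- without the drug were higher with it, as SESN2 (157 and 316) and CCND2 (178 and 229). Their log2 ratios were 1.01 and 0.36. WTAP, 3.58-fold higher without the drug, had 137 and 174, a log2 ratio of 0.34, below the median of 0.83. AMD1, METTL16, DDIT3, TRIB3 and PCK2 were listed in Leu- and absent from Met- there, so their ratio has no value. All 31 histone mRNAs listed in both lay below the median of the pair, at a median of -1.87. The 169 mRNAs with 1 or 2 coding exons had a median of 1.86 and the 1658 with 3 or more one of 0.76. Both are medians of mRNAs that passed the limit of 64 reads in Met-. Ribosomal protein mRNAs differed between the series, with 14 of 61 above the median with cycloheximide at a median of 0.02, against 51 of 74 above the median of all mRNAs without it. Coding GC content had a rho of 0.55 with the ratio in this pair and 0.08 without cycloheximide.

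**Figure D5:**
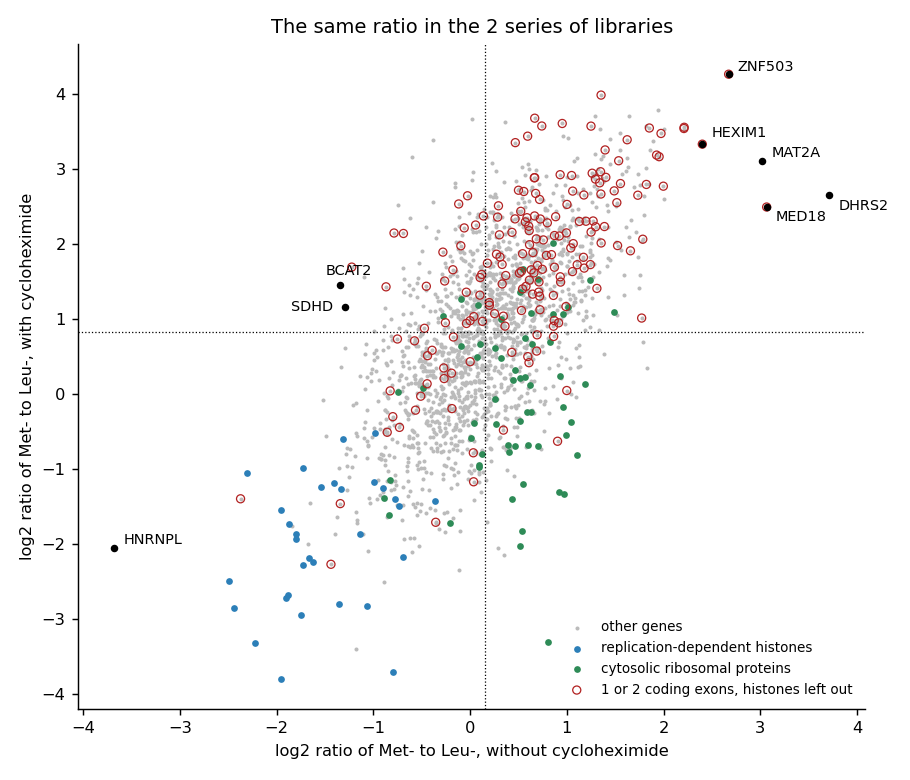
Each point is an mRNA listed in all 4 libraries of Met- and Leu-, with its log2 ratio without cycloheximide on the horizontal axis and with it on the vertical axis, and dotted lines at the median of each. Histones lie at the lower left, ribosomal protein mRNAs on both sides of the vertical line, more of them to its right, and mostly below the horizontal one, and mRNAs with 1 or 2 coding exons mostly at the upper right.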

How the data were processed

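Reads of footprint size were kept by the authors after trimming, and only unique matches to GRCh38 transcripts with no mismatch (Bowtie) were counted. What they deposited is 1 RPKM value per Ensembl transcript and library, with no positions. The records of the libraries without cycloheximide carry a mark of duplicate removal, which the methods do not mention. How far duplicate reads were removed was not checked. The aligner's version is not given in the sources used here.

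Transcripts were matched to GENCODE release 44 (96.7% in both libraries). Reads were recovered where RPKM times coding length was whole to within 0.01 of a step, for 97.2% of matched transcripts. Ratios used a pseudocount of 1, which understates differences of low mRNAs, and an absent mRNA counted as 0. Named genes are MAT2A, ATF4, ASNS, DDIT3, SESN2 and CHAC1, the 12 highest and 12 lowest ratios, and up to 4 members at either end of each of 36 lists. The members, lists and rules were chosen with earlier results of these data known. Scripts (Python 3.11.15, with pandas 2.3.3, numpy 2.4.6, matplotlib 3.10.9 and scipy 1.17.1) were tested on simulated data. A few genes these rules name are not reported here.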

Additional observations from a re-analysis of the deposited data

Results flagged for a closer look

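The mRNAs BCAT2 and SDHD, named above, went opposite ways in the series without and with cycloheximide, by at least 2-fold in each. BCAT2 had a log2 ratio of Met- to Leu- of -1.34 without the drug and 1.44 with it. SDHD had -1.29 and 1.15. Each series holds 1 library a side, and the difference between the series was not tested. The pair with cycloheximide has a median of 0.83 over the mRNAs listed in both. At the Leu- levels of BCAT2 and SDHD with the drug, the limit of 64 reads in Met- already required a higher value there. The direction of their ratios in that series was thus set by being listed.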

How the results depend on the processing

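With a mean of at least 50 RPKM, 237 mRNAs were at least 2-fold higher and 215 lower among 3611, without a limit 1442 and 954 among 11386, and relative to mRNAs of like coding length 526 were higher. The median log2 ratio was 0.0068 at the limit of 50 RPKM and 0.092 with the limit set on Suff. Relative to the median of all mRNAs, list medians were 0.31 for ribosomal proteins, -0.42 for oxidative phosphorylation, -0.59 for heat shock chaperones, -0.051 for nucleolar biogenesis, -0.63 for the proteasome and -0.17 for the lysosome. Relative to mRNAs of like coding length they were -0.59 for heat shock chaperones, -0.15 for nucleolar biogenesis, -0.24 for the lysosome and 0.44 for KRAB zinc finger genes. On this scale, which also removes the overall median of 0.15, other lists moved as well, amino acid transporters from 0.26 to 0.028, mitochondrial synthetases from 0.59 to 0.31, methylation enzymes from 0.29 to 0.028, the methionine list from 0.09 to -0.17, mitosis from -0.21 to -0.44 and cytosolic synthetases from -0.22 to -0.46. The cause of these shifts was not tested. The other alternatives, among them a pseudocount of 0.1 (902 and 435) and Leu- thinned to the depth of Met- (831 and 413), kept both counts within 1.5 times. Of 117 named genes at least 2-fold apart none changed sign in 882 alternative values, and 9 came under 2-fold in 14 of them. The alternatives that use coding length, the Suff level or the counting interval, or leave out MAT2A, were chosen after seeing the data.

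No paired analysis was possible because each condition has 1 library, and no library was left out for the same reason. Depth limits low mRNAs most, with a median of 165 reads per mRNA in the pair.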

Other observations

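Of the 235 mRNAs at least 2-fold apart in the pair both without and with cycloheximide, 5 went opposite ways. Beside BCAT2 and SDHD these were BOK, TMEM115 and WDR83, which were chosen after their values were seen. BOK, a member of the BCL2 family, had 20.9 RPKM in Leu- and was absent from Met- without the drug, and had 51.1 RPKM in Leu- and 2620 in Met- with it. TMEM115 had 60.7 and 25.4 RPKM without and 44.7 and 146 with the drug, and WDR83 21.8 and 9.72 without and 51.6 and 153 with it.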
